A study of Rattus norvegicus with 99 samples.

Results

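The cell cycle and mitosis genes described here are a list of 37 rat genes that dividing cells transcribe, from the regulators of the G1/S transition to the proteins that split the cell after mitosis. Members were found by gene symbol in the deposited whole-heart table of 17337 genes. Of the 37 named genes, 35 had an entry and all 35 passed the filter on low counts in each chamber. Cenpe and Anln were not analysed here. By role, the 35 genes comprised 3 genes of G1/S control, 10 of DNA replication and nucleotide supply, 2 general proliferation markers, 5 drivers of the G2/M transition, 6 mitotic kinases and checkpoint genes, 7 genes of the spindle, kinetochore and cytokinesis, and 2 of mitotic exit.

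PolyA RNA sequencing was performed on left ventricle (LV), septum (Spt) and right ventricle (RV) of 33 male rats, bred from Wistar Kyoto dams and Lewis sires, giving 99 libraries. A clip placed around the pulmonary artery (pulmonary artery banding, PAB) or the aorta (aortic banding, AOB) of young rats tightened as they grew and loaded the RV or the LV with pressure. The compensated stage was sampled at 11 weeks of age, 7 weeks after surgery, in 7 PAB-H, 7 AOB-H and 7 sham-operated (Sham-H) rats. Right heart failure was sampled at 27 weeks of age, 21 weeks after PAB, in 3 PAB-F and 2 Sham-RF rats, and left heart failure at 30 weeks of age, 24 weeks after AOB, in 4 AOB-F and 3 Sham-LF rats. No group carried a drug or a genetic change. All sham groups had the operation without banding, so that age and time since surgery cannot be told apart among them, and the older sham groups were small.

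Progression through the cell cycle is driven by cyclins and cyclin-dependent kinases. E2F factors switch on the replication genes at the G1/S transition, and the MuvB complex with B-Myb and FoxM1 switches on the mitotic genes later. Most cardiomyocytes of the rat leave the cell cycle soon after birth, whereas endothelial cells, fibroblasts and macrophages of the heart can go on dividing. In bulk tissue, fewer cells of a type and less RNA per cell cannot be told apart, and a transcript level does not say which cells divide.

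Promoters are shown because most members varied together across libraries and because the letters that E2F and MuvB are known to read lie in them. RefSeq promoters of build GRCr8, 250 bases before to 50 bases after the annotated start, were matched by symbol for 28 of the 37 named genes. Capitals mark 3 motifs searched on both strands, namely the cell cycle genes homology region (CHR, TTTGAA or TTCAAA), the CCAAT box (CCAAT or ATTGG) and an E2F site (TTTCGCGC, TTTGGCGC or their reverse complements GCGCGAAA and GCGCCAAA). The promoters of Mcm5 (chr19:13488563-13488862, plus strand), a replication gene, Cdk1 (chr20:19265043-19265342, plus strand) and Ccnb1 (chr2:33655176-33655475, minus strand), the kinase and cyclin that drive entry into mitosis, Prc1 (chr1:143659231-143659530, plus strand), which bundles the microtubules of the central spindle, and Mki67 (chr1:199952544-199952843, minus strand), the gene of the Ki-67 antigen, read as follows from 5′ to 3′.
Mcm5: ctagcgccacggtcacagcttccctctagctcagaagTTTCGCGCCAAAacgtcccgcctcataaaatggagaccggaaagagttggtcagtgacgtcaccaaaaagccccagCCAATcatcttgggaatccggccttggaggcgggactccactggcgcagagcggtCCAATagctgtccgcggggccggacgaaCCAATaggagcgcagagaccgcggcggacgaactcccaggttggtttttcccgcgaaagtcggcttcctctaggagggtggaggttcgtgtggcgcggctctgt
Cdk1: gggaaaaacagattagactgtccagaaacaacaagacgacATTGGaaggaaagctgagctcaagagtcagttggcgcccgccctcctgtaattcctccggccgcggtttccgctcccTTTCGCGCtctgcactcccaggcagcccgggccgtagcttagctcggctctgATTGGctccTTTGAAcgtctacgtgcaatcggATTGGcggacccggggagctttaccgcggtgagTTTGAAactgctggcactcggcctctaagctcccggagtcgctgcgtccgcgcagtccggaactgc
Ccnb1: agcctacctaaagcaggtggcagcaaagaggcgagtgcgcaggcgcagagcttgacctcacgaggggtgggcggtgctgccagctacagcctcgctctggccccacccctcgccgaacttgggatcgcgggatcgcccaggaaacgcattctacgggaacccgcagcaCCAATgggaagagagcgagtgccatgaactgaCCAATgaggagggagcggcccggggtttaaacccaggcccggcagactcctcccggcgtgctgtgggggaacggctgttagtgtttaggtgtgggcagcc
Prc1: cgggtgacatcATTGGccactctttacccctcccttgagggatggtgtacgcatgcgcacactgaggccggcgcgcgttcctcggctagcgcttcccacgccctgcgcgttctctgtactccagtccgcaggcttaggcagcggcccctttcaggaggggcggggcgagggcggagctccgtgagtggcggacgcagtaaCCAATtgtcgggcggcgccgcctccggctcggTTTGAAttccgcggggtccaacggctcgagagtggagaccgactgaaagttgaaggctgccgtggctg
Mki67: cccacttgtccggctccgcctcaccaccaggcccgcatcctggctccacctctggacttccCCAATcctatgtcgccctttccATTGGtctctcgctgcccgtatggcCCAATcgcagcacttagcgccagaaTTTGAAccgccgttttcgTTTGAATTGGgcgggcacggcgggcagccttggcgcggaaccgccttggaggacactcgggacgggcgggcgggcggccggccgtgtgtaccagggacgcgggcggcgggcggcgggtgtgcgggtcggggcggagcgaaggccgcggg
A CHR was found in 14 of the 28 member promoters (50%), compared with 18.3% of all 33469 promoters of the table. A CCAAT box was found in 21 (75%), compared with 37.5% of all, and both motifs together in 11 (39.3%), compared with 7.41% of all. An E2F site was found in 7 (25%), compared with 0.792% of all. These 7 promoters were those of Mcm2, Mcm3, Mcm5, Mcm6, Mcm7, Tyms and Cdk1, of which all but Cdk1 act in replication. The promoters of Mki67, Prc1 and Cdk1 held CHR and CCAAT boxes, that of Ccnb1 held CCAAT boxes and no CHR within this window, and that of Mcm5 held CCAAT boxes and 2 E2F matches that overlap each other. In Mki67 a CHR and a CCAAT match overlap. Among 109 promoters of other cell cycle genes, 42.2% held a CHR, 58.7% a CCAAT box and 10.1% an E2F site. These matches describe letters only.

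The 35 genes were lowly transcribed in all chambers, together taking at most 0.0400% of a library's counts. On the scale of length-corrected FPKM, averaged over the 99 libraries, the order of levels was led by replication genes. Pcna, the sliding clamp of DNA polymerase, had 49.5 FPKM, Rrm1, the large subunit of ribonucleotide reductase, 14.3 FPKM, Mcm7, a subunit of the replicative helicase, 12.6 FPKM, and Mcm2, another subunit, 5.39 FPKM. At the lower end were Cenpf, a kinetochore protein, with 0.519 FPKM, Bub1b, a spindle checkpoint kinase, with 0.438 FPKM, and Rrm2, the small subunit of ribonucleotide reductase, with 0.401 FPKM and 1 to 38 counts in a library. The large and small subunits of ribonucleotide reductase thus ranked 2 and 35 of the 35 genes.

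Most members varied together. Across the 99 libraries the Pearson correlation of a gene's log2 CPM (counts scaled to the library size, with TMM factors) with the mean of the other members was 0.95 for Prc1, 0.91 for Tpx2, a spindle assembly factor, and 0.89 for Cenpf. It was 0.85 for Top2a, the topoisomerase that untangles replicated chromosomes, 0.83 for Cdk1 and 0.82 for Mki67. The 4 lowest values were those of replication genes, with 0.43 for Pcna, 0.40 for Mcm7, 0.36 for Tyms, the enzyme of thymidylate synthesis, and -0.13 for Rrm1. Other replication genes had higher values, such as 0.71 for Mcm2 and 0.80 for Mcm5 and for Mcm6. These correlations are descriptions over libraries that share animals, library series and depth. The genes outside the cell cycle lists with the most similar pattern were Fam64a (0.88), Cep55 (0.84), Plk4 (0.82), Diaph3 (0.81), Fam111a (0.78), Dpep2 (0.78), Mxd3 (0.78), Mcam (0.77), Knstrn (0.76) and Mest (0.75), measured as the Pearson correlation with the member mean over the same 99 libraries.

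Library totals lay between 12562697 and 24197244 counts in LV, 12057180 and 22134595 counts in Spt and 12797020 and 23804054 counts in RV. By their library numbers, the libraries belong to 3 series, with all LV and RV libraries of the failure stage and its shams in series 2. All Spt libraries of those rats were in series 3. Over all groups, 27 Spt libraries were in series 3 and 6 in series 2. Of the RV libraries, 21 were in series 2, 6 in series 1 and 6 in series 3. The ventricle labels were checked with 50 genes outside the lists, which differ between LV and RV. In 30 animals the RV to LV difference of these genes had the direction of the other animals, at 0.289 to 1.51 times the usual size. In 3 animals it was opposite, with a ratio of -0.92 in Sham-H replicate 6, -1.03 in PAB-H replicate 2 and -1.32 in AOB-H replicate 1. The LV and RV labels of these 3 animals are therefore doubtful. For the cell cycle genes, counts of members called between chambers are given with and without them. Other results that use them are given without them only in part. Unless stated otherwise, the values include them.

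Most calls of cell cycle genes were made between chambers, in a comparison within 33 animals. The tests of age and banding compared fewer animals, and between animals, so that counts of calls do not compare sizes of differences. The median member difference between RV and LV was close to those of age in Spt and RV, which are given below. In the RV, 17 of 35 members were lower than in the LV of the same animals, where 18.3% of all genes were lower, and 26 of 35 were lower than in the Spt, where 16.7% of all genes were lower. Without 3 animals whose ventricle labels are doubtful, 27 and 28 members were lower. In the 9 animals whose 3 libraries share a library series, the counts were 0 and 4. Without the animal with doubtful labels in that set, the counts were 9 and 14. For these fits of part of the animals the shares of all genes are not given here, so that their counts have no such comparison. Rrm1 went the other way and was higher in RV than in LV. The comparison between chambers was added after the planned comparisons had been seen. It used a fit of all 99 libraries with the animal as a block, and a gene was called at an adjusted p below 0.05 (edgeR quasi-likelihood test, Benjamini-Hochberg over all genes tested). Differences are on the log2 scale with their SE.

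**Figure D1:**
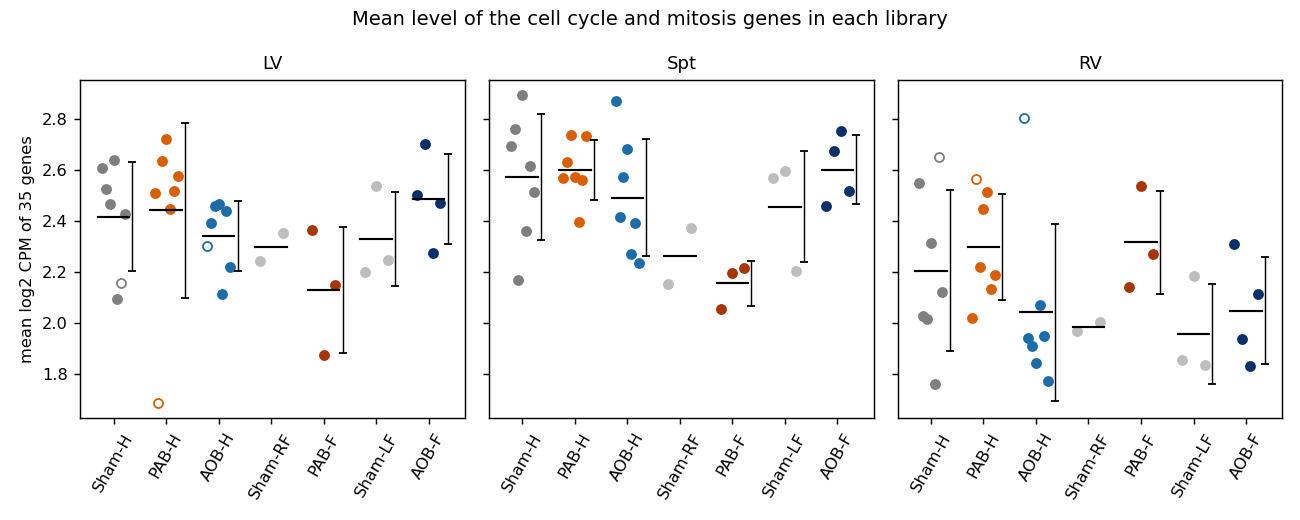
Mean log2 CPM of the 35 cell cycle genes in each of the 99 libraries, by condition and chamber. Each circle is a library, open circles are the 3 animals with doubtful ventricle labels, the line is the group mean and the bar its SD where a group has more than 2 libraries. The RV group means lie below the LV and Spt means of the same condition in every condition but PAB-F.

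Mki67 had 5.21 to 15.3 CPM in LV (median 9.08), 6.22 to 17.2 CPM in Spt (median 11.6) and 3.86 to 12.7 CPM in RV (median 7.59), with 33 libraries each. Top2a had 4.04 to 12.7 CPM in LV (median 7.20), 5.38 to 14.0 CPM in Spt (median 9.57) and 2.91 to 11.1 CPM in RV (median 5.94). The ranges of the chambers overlapped widely, but within animals RV was below Spt for Mki67 in 30 of 33 and for Top2a in 29 of 33. Cdk1 had 2.40 to 7.66 CPM in LV (median 4.69), 2.89 to 7.87 CPM in Spt (median 5.27) and 1.89 to 8.36 CPM in RV (median 3.59). Ccnb1 had 1.504 to 4.17 CPM in LV (median 3.09), 1.92 to 4.62 CPM in Spt (median 3.25) and 1.46 to 4.61 CPM in RV (median 2.75). Mcm5, a helicase subunit, had 5.48 to 11.6 CPM in LV (median 8.59), 6.47 to 11.7 CPM in Spt (median 9.27) and 3.21 to 10.8 CPM in RV (median 6.23). For these 3 genes too the lowest median was that of the RV. Pcna was nearly level, with 46.9 to 72.2 CPM in LV (median 57.0), 51.5 to 90.5 CPM in Spt (median 57.6) and 48.0 to 80.7 CPM in RV (median 55.6).

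Rrm1 had 32.8 to 51.3 CPM in LV (median 40.0), 38.8 to 50.1 CPM in Spt (median 43.4) and 36.8 to 52.3 CPM in RV (median 45.9). Prc1 had 3.56 to 14.3 CPM in LV (median 9.18), 6.02 to 16.9 CPM in Spt (median 10.5) and 3.49 to 13.1 CPM in RV (median 6.30). Nusap1 had 6.73 to 11.5 CPM in LV (median 9.36), 6.74 to 11.4 CPM in Spt (median 8.71) and 5.36 to 9.92 CPM in RV (median 8.03). Prc1 and Nusap1 thus had their lowest median in RV, and Rrm1 its lowest median in LV.

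Between RV and LV, 18 of 35 members were called by edgeR, 1 higher and 17 lower, where 36.6% of all 11924 genes were called, 18.3% in each direction. The median log2 difference of the members was -0.23, compared with -0.00 over all genes, and 31 of 35 were negative. DESeq2 called 17 members. Without the 3 animals with doubtful labels 28 members were called, 1 higher and 27 lower, with a median of -0.28. The LV and RV libraries of series 2 alone gave 24 calls (median -0.29), and those of series 1 and of series 3 gave 0 calls each, with medians of -0.00 and -0.27. Series 1 holds 2 of the 3 animals with doubtful labels and series 3 the other. Without them, the 4 animals left in series 1 gave 8 calls, all lower in RV (median -0.42), and the 5 left in series 3 gave 15, 1 higher and 14 lower (median -0.40). In the 9 animals whose 3 libraries share a series 0 members were called (median -0.21), and 10 without the animal among them with doubtful labels (median -0.34). The shares of all genes in these fits of part of the animals are not given here.

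By role, none of the 3 genes of G1/S control was called between RV and LV, where E2f1, a transcription factor of the G1/S transition, had -0.18 ± 0.09. Of the 10 replication genes, Mcm5 (-0.45 ± 0.08, adjusted p = 3.2e-05), Mcm6 (-0.23 ± 0.06), Mcm7 (-0.07 ± 0.03) and Rrm2 (-0.41 ± 0.15) were lower in RV. Rrm1 was higher by 0.18 ± 0.03 (adjusted p = 3.57e-06), and its level was lower in RV in only 4 of 33 animals, 3 of them those with doubtful labels. Both proliferation markers were lower in RV, with -0.38 ± 0.09 for Mki67 and -0.36 ± 0.10 for Top2a. Of the 5 drivers of G2/M, Ccna2, the S and G2 phase cyclin, had -0.55 ± 0.12, Cdk1 -0.40 ± 0.11 and Foxm1, a transcription factor of mitotic genes, -0.39 ± 0.09, all called, while Ccnb1 (-0.20 ± 0.09) and Ccnb2 (-0.33 ± 0.16) were not. In the spindle group 6 of 7 genes were lower, namely Prc1 (-0.50 ± 0.10), the kinesins Kif20a (-0.39 ± 0.10), Kif23 (-0.33 ± 0.11) and Kif11 (-0.32 ± 0.09), and Tpx2 (-0.30 ± 0.09) and Nusap1 (-0.24 ± 0.04), which act on spindle microtubules. Cenpf (-0.21 ± 0.10) missed the threshold. Of the 6 mitotic kinases and checkpoint genes only Aurka, a centrosomal kinase, was called (-0.19 ± 0.07), and of the mitotic exit genes only Cdc20, an activator of the anaphase-promoting complex (-0.34 ± 0.08). These calls by role include the 3 animals with doubtful labels. Without them E2f1 (-0.24 ± 0.09), Ccnb1 (-0.25 ± 0.08), Ccnb2 (-0.47 ± 0.14) and Cenpf (-0.26 ± 0.09) were called as well. So were Aurkb (-0.33 ± 0.09), Plk1 (-0.29 ± 0.09), Bub1b (-0.28 ± 0.11), Ube2c (-0.33 ± 0.11), Mcm3 and Tyms, all lower in RV. Ccne1, Ccne2, Pcna, Mcm2, Mcm4, Bub1 and Birc5 stayed uncalled.

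**Figure D2:**
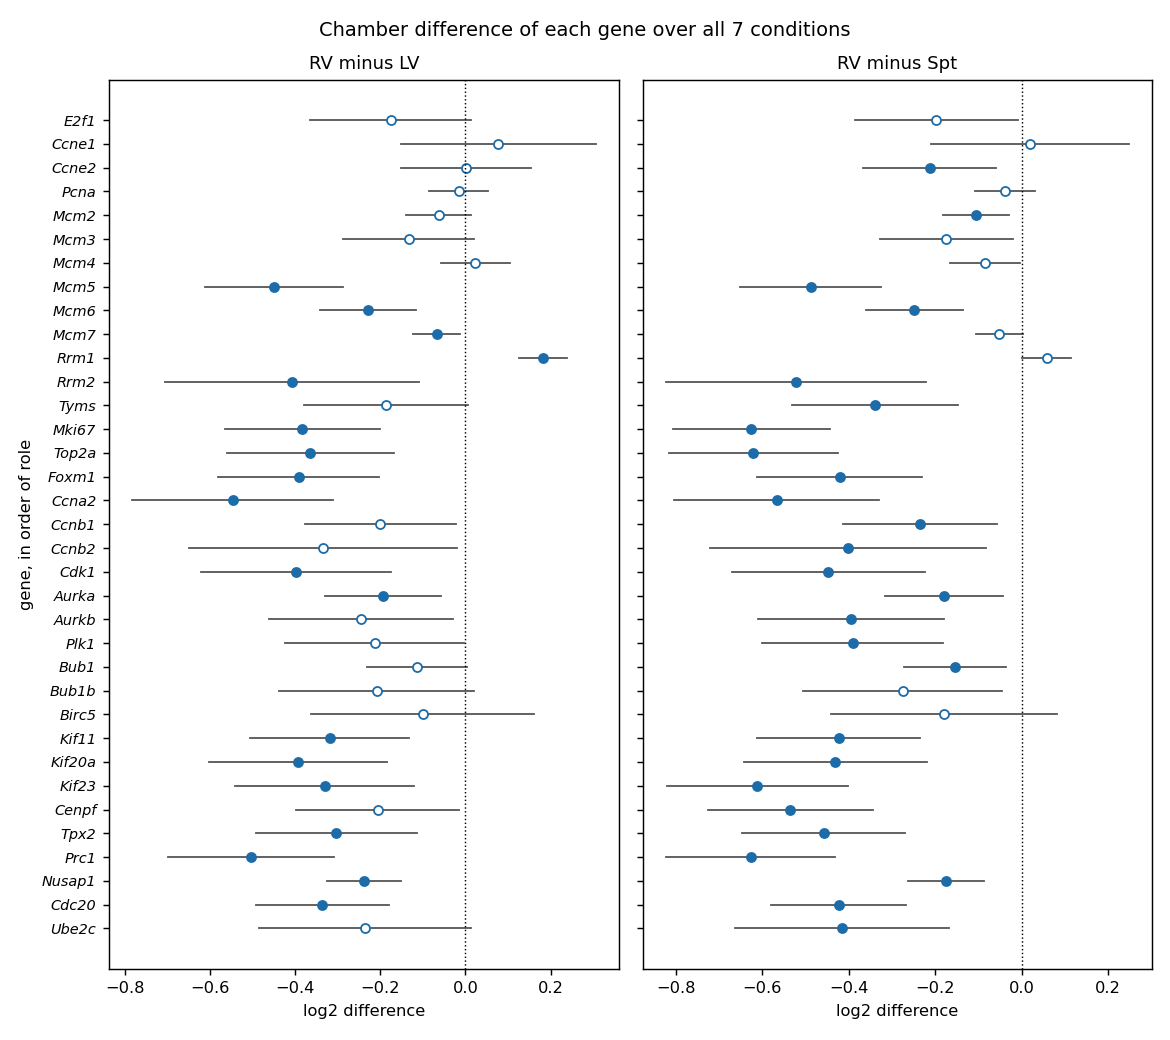
Log2 difference of each of the 35 genes between chambers with its 95% interval, from the fit of 99 libraries with the animal as a block, ordered by role. Filled circles passed the adjusted threshold. The 6 called spindle genes, Mki67 and Top2a lie below zero for RV minus LV, all of them but Nusap1 further below zero for RV minus Spt, and Rrm1 lies above zero for RV minus LV.

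Between RV and Spt more members were called, all 26 of them lower in RV, where 31.9% of all genes were called, 16.7% of all genes being lower. DESeq2 called 25, and without the 3 animals with doubtful labels 29 were called, 28 of them lower. The 9 animals with all libraries in a shared series gave 4 calls, and 14 without the animal with doubtful labels. In the other animals the Spt library lay in another series than the RV library. The shares of all genes in the fits of part of the animals are not given here. The median difference was -0.39, compared with 0.01 over all genes. Mki67 (-0.63 ± 0.09, adjusted p = 3.47e-07), Prc1 (-0.63 ± 0.10) and Top2a (-0.62 ± 0.10) differed most, followed by Kif23 (-0.61 ± 0.10) and Ccna2 (-0.57 ± 0.12). All 7 spindle genes, all 5 G2/M drivers, both proliferation markers and both mitotic exit genes were called, compared with 5 of 10 replication genes, 4 of 6 kinases and checkpoint genes and 1 of 3 G1/S genes. Pcna (-0.04 ± 0.03, 95% interval -0.11 to 0.03) and Ccne1, a G1/S cyclin (0.02 ± 0.11), were not called. Without the 3 animals with doubtful labels, both E2f1 (-0.24 ± 0.09) and Ccne2 (-0.22 ± 0.07) were called, and Rrm1 was higher in RV (0.07 ± 0.02).

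Spt and LV were closer to each other. Between them 3 members were called, all higher in Spt, where 14.1% of all genes were called. These were Rrm1 (0.12 ± 0.03), Cenpf (0.33 ± 0.09) and Ccne2, a G1/S cyclin (0.21 ± 0.08). DESeq2 called 5, and the animals with all libraries in a shared series gave 0. Without the animals with doubtful labels, Rrm1, Cenpf and Kif23 (0.23 ± 0.08) were called and Ccne2 (0.19 ± 0.07) was not. The median difference of the members was 0.07.

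The mean log2 CPM of the 35 genes was lower in RV than in LV in 27 of 33 animals, namely in 27 of the 30 animals with clear labels and in 0 of the 3 with doubtful labels. The median over the 30 animals was -0.36, and each animal is shown in the plot of differences within animals. By library series, it was lower in 4 of 4 animals of series 1, in 18 of 21 of series 2 and in 5 of 5 of series 3 among those with clear labels. Of the 3 exceptions, 2 were PAB-F rats and the other a PAB-H rat. In the 3 PAB-F rats the difference was -0.22, 0.66 and 0.12, whereas all 4 AOB-F, all 3 Sham-LF and both Sham-RF rats had negative values. RV was below Spt in 28 of 33 animals.

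**Figure D3:**
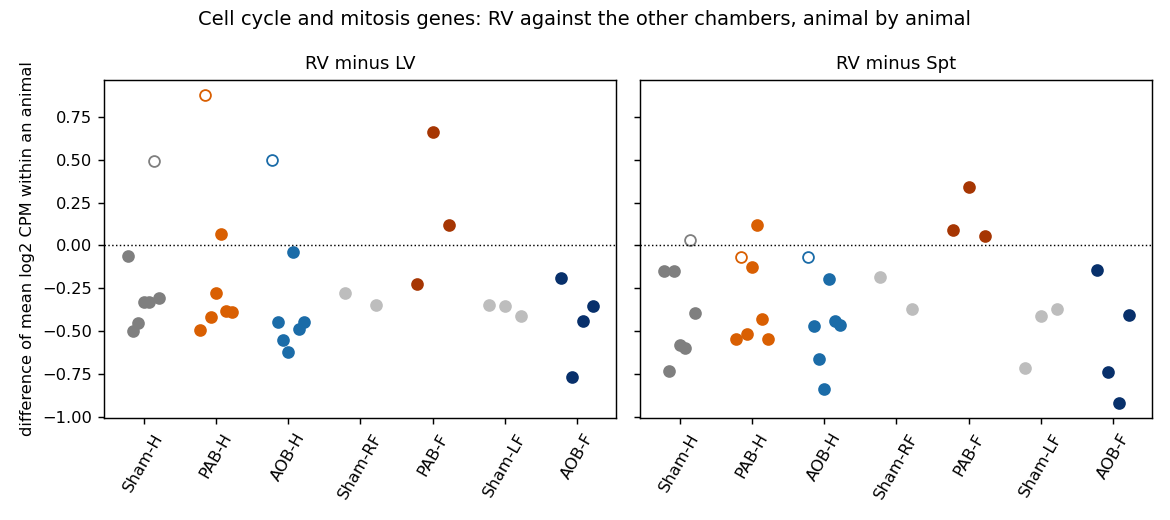
Difference of the mean log2 CPM of the 35 genes between RV and LV and between RV and Spt within each animal, by condition. Each circle is an animal, and open circles are the 3 animals with doubtful labels. Most circles lie below zero, and those above zero for RV minus LV belong to PAB-F, to PAB-H and to the animals with doubtful labels.

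Other cell cycle genes showed a similar split. Of 111 tested genes of a wider list, 38 were lower and 4 higher in RV than in LV (median -0.16), and 49 were lower and 3 higher in RV than in Spt (median -0.22). Over all genes, 18.3% were lower and 18.3% higher in RV than in LV, and 16.7% were lower and 15.2% higher in RV than in Spt. Among its 51 mitotic genes, 26 were lower in RV than in LV and 31 lower than in Spt, and none was higher in either. Of the D cyclins and their kinases, which respond to growth signals in G1, Ccnd1 (-0.26), Ccnd3 (-0.18) and Cdk4 (-0.11) were lower in RV than in LV. Of the CDK inhibitors, Cdkn2b (-0.62) and Cdkn2c (-0.18) were lower and Cdkn1c (0.24) was higher.

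Markers of several cell types differed between the chambers as well. In RV compared with LV, all 6 cardiomyocyte markers were higher, with a summed level of 43864 to 80536 CPM (median 67419) in RV and 35456 to 78556 CPM (median 56856) in LV. All 6 macrophage markers were lower, with a sum of 186 to 433 CPM (median 241) in RV and 221 to 573 CPM (median 292) in LV. All 5 tested fibroblast markers were lower too, with 1813 to 3917 CPM (median 2505) in RV and 2438 to 3720 CPM (median 3025) in LV. Of 6 endothelial markers 4 were lower and 1, Vwf, was higher, with sums of 816 to 1409 CPM in RV and 785 to 1343 CPM in LV. Of 4 mesothelial markers 3 were higher and 1, Wt1, was lower, with 20.5 to 149 CPM (median 55.2) in RV and 20.7 to 112 CPM (median 32.5) in LV. Compared with Spt, 5 of 6 endothelial markers were lower in RV, 0 of 6 macrophage markers were called and 2 of 5 fibroblast markers were higher. The cardiomyocyte sum in Spt was 42858 to 80743 CPM (median 60268). Across the 99 libraries the member mean correlated with the cardiomyocyte sum at -0.43. Its correlations with the other marker sums lay between -0.39 (mesothelial) and 0.28 (fibroblast). The part of these markers in the difference of the cell cycle genes was not tested.

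Within the shams alone, most differences had the same direction in both age groups. In the 7 Sham-H rats no member was called between RV and LV by edgeR's quasi-likelihood test (0% of all genes were called). In that test 7 had an unadjusted p below 0.05 (1 higher, 6 lower), where 9.07% of all genes did. DESeq2 called 0, and 33 of 35 differences were negative (median -0.19, median 95% interval -0.58 to 0.14). In the fit without the 3 animals with doubtful labels 5 members were called. Between RV and Spt, Mki67 alone was called (-0.66 ± 0.17, adjusted p = 0.0366), where 1.14% of all genes were called. It was 12 members without the 3 animals with doubtful labels, and 0 when any of Sham-H replicates 2, 3, 4, 5 or 7 was left out. For the fits without animals the shares of all genes are not given here. In the 5 older shams 7 members were called between RV and LV, where 12.5% of all genes were called, and DESeq2 called 8. Mcm5 (-0.83 ± 0.19), Prc1 (-0.86 ± 0.23), Nusap1 (-0.36 ± 0.10), Foxm1 (-0.79 ± 0.23), Mki67 (-0.64 ± 0.22) and Ccna2 (-0.82 ± 0.28) were lower and Rrm1 (0.22 ± 0.07) was higher in RV. Between RV and Spt of the older shams 7 members were called, all lower, where 5.28% of all genes were called, and DESeq2 called 8. The RV and Spt libraries of these rats lay in different library series, so that chamber and series cannot be told apart here. The 7 members were Mki67 (-0.84 ± 0.22), Mcm5 (-0.73 ± 0.20), Prc1 (-0.85 ± 0.23), Kif23 (-0.88 ± 0.25), Cdc20 (-0.62 ± 0.18), Top2a (-0.78 ± 0.23) and Foxm1 (-0.74 ± 0.23). These counts rested on few animals. Leaving out either Sham-RF animal left 0 members called in both comparisons, leaving out Sham-LF replicate 1 left 4 between RV and LV and 0 between RV and Spt, and leaving out Sham-LF replicate 2 left 2 between RV and Spt.

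The planned comparison of young and older shams asked whether the cell cycle genes differ with age. Most member differences were negative in each chamber, with lower levels in the older shams, but no member was called in any chamber by edgeR. In Spt 34 of 35 differences were negative, with a median of -0.24 (median 95% interval -0.61 to 0.10), compared with -0.03 over all genes. In RV 33 of 35 were negative with a median of -0.26 (-0.82 to 0.15), compared with -0.01. In LV 27 of 35 were negative with a median of -0.12 (-0.54 to 0.25), compared with -0.01.

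In LV, 0 members were called, where 0.0171% of 11703 genes were called. Only Ccne1 had an unadjusted p below 0.05 (6.99% of all genes did), and DESeq2 called 0. In Spt, 0 were called, where 0.103% of 11624 genes were called, 0.0688% higher and 0.0344% lower. In that chamber 7 members had an unadjusted p below 0.05, all lower (16.8% of all genes), and DESeq2 called 1. In RV, 0 were called, where 0.0852% of 11734 genes were called, 0.0682% higher and 0.017% lower. There 4 had an unadjusted p below 0.05, all lower (11% of all genes), and DESeq2 called 0.

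Mcm5 had the lowest adjusted p in Spt and in RV. In Spt it had 6.99 to 11.6 CPM (median 9.31) in Sham-H, 6.87 and 6.88 CPM in Sham-RF and 7.06, 8.28 and 7.07 CPM in Sham-LF. Of the 5 older libraries 2 lay below all Sham-H libraries and the others in the lower part of their range, and the difference was -0.43 ± 0.12 (95% interval -0.67 to -0.19, adjusted p = 0.0795 by edgeR's quasi-likelihood test). In RV it had 4.99 to 10.8 CPM (median 6.81) in Sham-H, 3.49 and 5.32 CPM in Sham-RF and 3.21, 5.09 and 4.76 CPM in Sham-LF. Here 3 of the 5 older libraries lay below all Sham-H libraries, and the difference was -0.73 ± 0.22 (95% interval -1.19 to -0.27, adjusted p = 0.26). In LV it had 5.87 to 11.6 CPM (median 10.7) in Sham-H, 7.04 and 9.30 CPM in Sham-RF and 6.18, 8.00 and 7.99 CPM in Sham-LF, a difference of -0.30 ± 0.15.

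Foxm1 in RV had 1.87 to 3.64 CPM (median 2.50) in Sham-H, 1.60 and 1.97 CPM in Sham-RF and 1.53, 1.15 and 1.72 CPM in Sham-LF. Of the older libraries 4 lay below all Sham-H libraries, and the difference was -0.65 ± 0.21 (adjusted p = 0.278). Top2a in RV had 2.91 to 11.1 CPM (median 7.20) in Sham-H, 4.14 and 4.72 CPM in Sham-RF and 3.36, 6.41 and 4.07 CPM in Sham-LF, a difference of -0.59 ± 0.25. Mki67 in RV had 4.08 to 12.3 CPM (median 7.69) in Sham-H, 6.03 and 7.77 CPM in Sham-RF and 4.28, 6.90 and 3.90 CPM in Sham-LF, a difference of -0.39 ± 0.27 (95% interval -0.93 to 0.16). For both genes the older values lay mostly in the lower part of a wide Sham-H range. Cdk1 in RV had 2.58 to 6.26 CPM (median 4.58) in Sham-H, 1.89 and 3.59 CPM in Sham-RF and 4.12, 4.11 and 2.12 CPM in Sham-LF (-0.51 ± 0.30). Ccnb1 in RV had 1.69 to 4.60 CPM (median 2.52) in Sham-H, 1.82 and 2.87 CPM in Sham-RF and 2.06, 2.22 and 2.58 CPM in Sham-LF (-0.24 ± 0.22). All older Ccnb1 values were within the Sham-H range. Pcna in RV had 50.7 to 69.6 CPM (median 58.1) in Sham-H, 53.7 and 54.0 CPM in Sham-RF and 65.2, 61.6 and 48.0 CPM in Sham-LF (-0.05 ± 0.10).

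In Spt, Rrm2 had 0.482 to 1.99 CPM (median 1.45) in Sham-H, 0.888 and 0.936 CPM in Sham-RF and 0.963, 0.88 and 0.676 CPM in Sham-LF. The difference was -0.67 ± 0.26 (adjusted p = 0.205), with overlapping groups. Mki67 in Spt had 6.34 to 16.9 CPM (median 12.6) in Sham-H, 8.59 and 10.1 CPM in Sham-RF and 13.6, 12.6 and 9.16 CPM in Sham-LF (-0.21 ± 0.19). Top2a in Spt had 5.38 to 11.2 CPM (median 10.5) in Sham-H, 6.28 and 7.55 CPM in Sham-RF and 10.5, 8.98 and 6.64 CPM in Sham-LF (-0.27 ± 0.17). For both, each Sham-RF rat was lower than at least 2 of the 3 Sham-LF rats. Pcna in Spt had 55.8 to 90.5 CPM (median 61.6) in Sham-H, 56.9 and 55.7 CPM in Sham-RF and 63.7, 59.2 and 51.5 CPM in Sham-LF (-0.18 ± 0.08), the highest Sham-H value being that of replicate 5. Cdk1 in Spt had 3.35 to 7.87 CPM (median 5.61) in Sham-H, 4.92 and 4.75 CPM in Sham-RF and 5.07, 5.63 and 2.89 CPM in Sham-LF (-0.35 ± 0.20). Ccnb1 in Spt had 2.05 to 4.05 CPM (median 3.32) in Sham-H, 2.25 and 3.48 CPM in Sham-RF and 3.40, 2.91 and 2.15 CPM in Sham-LF (-0.21 ± 0.20), with overlap. Aurkb, a kinase of the chromosomal passenger complex, was the only member with a positive difference in Spt (0.04 ± 0.20).

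In LV, Ccne1 had 0.874 to 2.23 CPM (median 1.61) in Sham-H, 1.11 and 0.861 CPM in Sham-RF and 0.669, 1.60 and 1.17 CPM in Sham-LF (-0.60 ± 0.26, adjusted p = 0.647), with overlapping groups. The lowest p among positive differences belonged to Nusap1 (0.13 ± 0.10) and Aurka (0.12 ± 0.14). Mki67 in LV had 6.02 to 12.1 CPM (median 8.99) in Sham-H, 8.40 and 9.76 CPM in Sham-RF and 8.80, 8.90 and 9.22 CPM in Sham-LF (0.00 ± 0.23, 95% interval -0.47 to 0.48), so that its older LV values sat around the Sham-H median. Top2a in LV had 5.97 to 9.67 CPM (median 7.65) in Sham-H, 6.59 and 7.63 CPM in Sham-RF and 6.69, 8.48 and 6.05 CPM in Sham-LF (-0.09 ± 0.25). Ccnb1 in LV had 2.06 to 3.80 CPM (median 3.09) in Sham-H, 2.92 and 3.96 CPM in Sham-RF and 1.504, 4.17 and 3.11 CPM in Sham-LF (0.06 ± 0.20). Pcna in LV had 50.9 to 69.5 CPM (median 59.0) in Sham-H, 58.6 and 58.0 CPM in Sham-RF and 55.5, 63.3 and 51.5 CPM in Sham-LF (-0.02 ± 0.08). Cdk1 in LV had 2.83 to 7.66 CPM (median 6.22) in Sham-H, 3.67 and 4.08 CPM in Sham-RF and 4.07, 6.61 and 4.52 CPM in Sham-LF (-0.29 ± 0.25). In these 5 genes the groups overlapped.

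The members with the lowest p among positive age differences had small differences. Nusap1 in LV had 6.73 to 10.1 CPM (median 9.32) in Sham-H, 9.01 and 9.64 CPM in Sham-RF and 9.86, 10.9 and 9.63 CPM in Sham-LF. Aurka in LV had 2.91 to 4.10 CPM (median 3.51) in Sham-H, 3.52 and 4.08 CPM in Sham-RF and 3.84, 4.03 and 4.05 CPM in Sham-LF. Aurkb in Spt had 3.08 to 6.12 CPM (median 4.34) in Sham-H, 3.26 and 4.68 CPM in Sham-RF and 5.52, 6.78 and 3.69 CPM in Sham-LF. The groups overlapped in each. In RV, Birc5, the gene of survivin, had 0.562 to 1.88 CPM (median 1.27) in Sham-H, 1.53 and 1.67 CPM in Sham-RF and 1.07, 2.38 and 1.15 CPM in Sham-LF (0.20 ± 0.34). Rrm1 in RV had 38.5 to 46.8 CPM (median 42.8) in Sham-H, 36.8 and 45.9 CPM in Sham-RF and 46.8, 46.5 and 46.1 CPM in Sham-LF (0.02 ± 0.07). These also overlapped.

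The older sham groups were not alike in Spt, where the median difference was -0.37 for Sham-RF alone and -0.15 for Sham-LF alone. In RV the median was -0.19 without the animals with doubtful labels, where that of LV was -0.13, and -0.07 in the RV libraries of series 2 alone, with 21 of 35 negative. The age difference was also compared between chambers, and no member was called. For RV minus LV 0 members were called (0.00839% of all genes), 2 had an unadjusted p below 0.05 (5.4% of all genes), Foxm1 (-0.64 ± 0.29) and Prc1 (-0.62 ± 0.30), and DESeq2 called 0. For Spt minus LV and for RV minus Spt 0 were called (0% of all genes), 0 had an unadjusted p below 0.05 (7.42% and 3.21% of all genes), and DESeq2 called 0. Sham-H replicate 6, whose ventricle labels are doubtful, is among these shams. Without the animals with doubtful labels, Foxm1 (-0.44 ± 0.25) and Prc1 (-0.41 ± 0.22) no longer had an unadjusted p below 0.05 for RV minus LV. No other member did. For RV minus Spt, Birc5 (0.75 ± 0.37) then had one. The shares of all genes in that fit are not given here. In Spt, 2 of 5 tested fibroblast markers, Col3a1 (-0.99) and Col1a1 (-0.83), were also lower in older shams, and the fibroblast marker sum was 2338 to 3477 CPM in Sham-H, 2065 to 2298 CPM in Sham-RF and 1738 to 2085 CPM in Sham-LF. In RV Col3a1 was lower (-0.80), with sums of 2305 to 3345, 2466 to 2481 and 2000 to 2524 CPM. Their part in the lower member levels was not tested.

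Of the wider cell cycle list, 0 genes were called by edgeR for age in any chamber. In Spt 15 of 111 tested genes had an unadjusted p below 0.05 with lower levels and 3 with higher levels, a share near the 16.8% of all genes, led by Cdk4 (-0.25), Gins2, a replication factor (-0.52), and Tfdp2, an E2F partner (-0.25), with adjusted p of 0.112 to 0.12. In RV 11 of 109 were lower and 1 higher at that threshold, near the 11% of all genes, led by Depdc1 (-1.04), Racgap1, a central spindle protein (-1.01), and Mad2l1, a spindle checkpoint protein (-0.42). In LV 10 of 111 were lower and 0 higher, where 6.99% of all genes passed it, led by Cdt1, a replication licensing factor (-0.50), Pkmyt1, an inhibitory kinase of Cdk1 (-0.63), and Cdc45, a helicase cofactor (-0.36). The CDK inhibitors did not share this direction, their median difference being 0.03 in LV, 0.07 in Spt and 0.00 in RV.

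**Figure D4:**
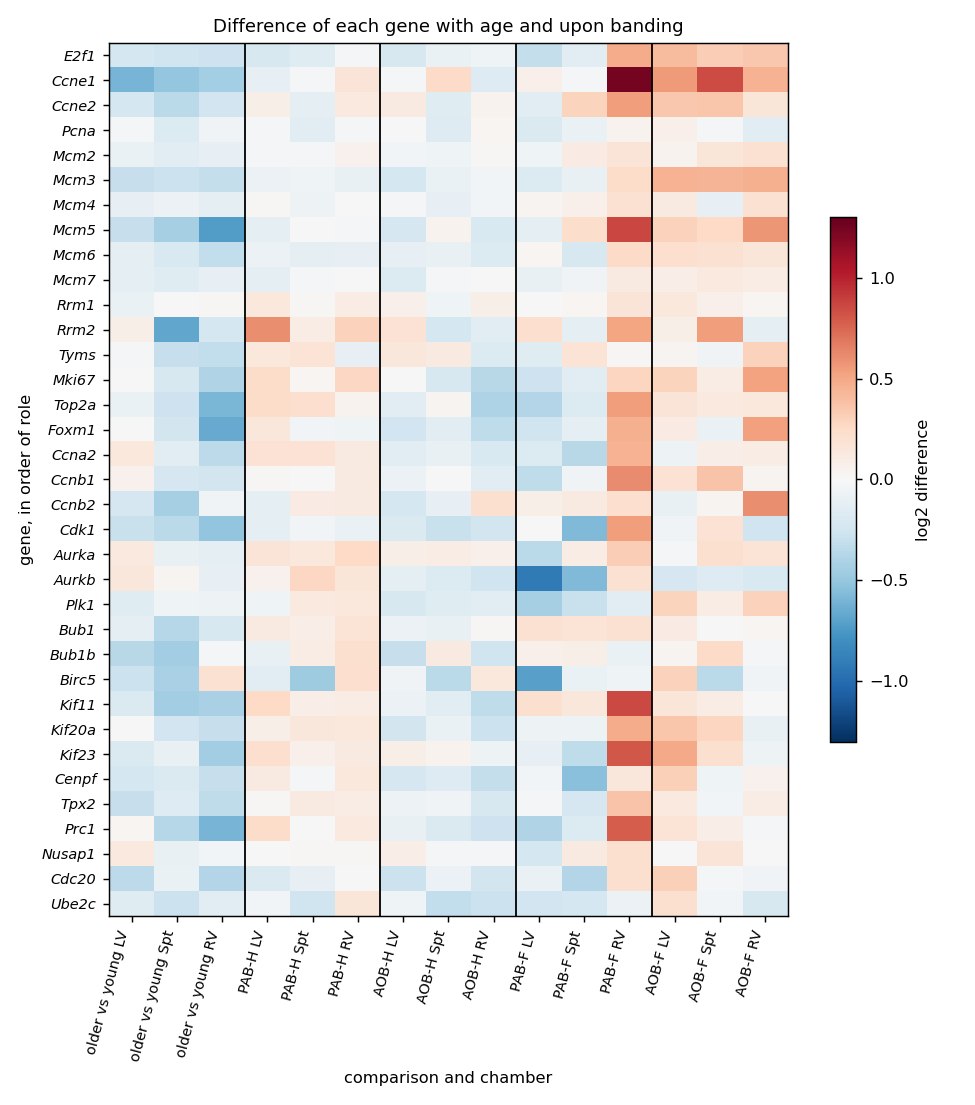
Log2 difference of each of the 35 genes in the age comparison and in each banding comparison, by chamber, with genes ordered by role. Negative values prevail for older against young shams in Spt and RV, and positive values for PAB-F against Sham-RF in RV and for AOB-F against Sham-LF in LV. No cell of the plot passed the adjusted threshold.

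At the compensated stage, 7 weeks after banding, no cell cycle gene of the banded rats passed the test against Sham-H in any chamber. Upon PAB, 0 members were called by edgeR in LV, Spt and RV (0% of all genes in each), 1, 1 and 0 had an unadjusted p below 0.05 (4.72%, 4.44% and 1.26% of all genes), and DESeq2 called 0 in each. The median difference was 0.01 in LV, 0.00 in Spt and 0.11 in the loaded RV, where the median 95% interval ran from -0.33 to 0.49. Upon AOB, 0 were called in each chamber (0% of all genes), 1, 1 and 0 had an unadjusted p below 0.05 (4.54%, 15.9% and 0.937% of all genes), and DESeq2 called 0. The medians were -0.08 in LV, with a median interval from -0.47 to 0.28 in this loaded chamber, -0.09 in Spt and -0.17 in RV. Both comparisons share the 7 Sham-H rats.

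In RV upon PAB, Mki67 had 4.67 to 12.7 CPM (median 10.2) in PAB-H, a difference of 0.27 ± 0.23 from Sham-H (95% interval -0.21 to 0.75). Top2a had 4.13 to 8.89 CPM (median 7.45), a difference of 0.04 ± 0.22. Cdk1 had 2.45 to 7.10 CPM (median 3.60), a difference of -0.09 ± 0.26. These ranges overlapped those of Sham-H. Mcm5 had 5.38 to 10.2 CPM (median 6.35) (-0.02 ± 0.19), Ccnb1 2.87 to 3.25 CPM (median 2.93) (0.12 ± 0.20) and Pcna 48.3 to 65.3 CPM (median 58.8) (-0.03 ± 0.09), again with overlap. In LV upon PAB, Rrm2 had 0.548 to 1.83 CPM (median 1.60) in PAB-H and 0.696 to 1.44 CPM (median 0.784) in Sham-H, a difference of 0.61 ± 0.25 (adjusted p = 0.957) that turned to -0.10 within library series 1, one animal with doubtful labels included. In Spt upon PAB, Birc5 had 1.07 to 2.15 CPM (median 1.63) in PAB-H and 1.62 to 3.37 CPM (median 2.06) in Sham-H (-0.47 ± 0.21, adjusted p = 0.79).

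The other members with the lowest p upon PAB overlapped between PAB-H and Sham-H as well. In RV, Rrm1 had 41.5 to 52.3 CPM (median 46.7) in PAB-H and 38.5 to 46.8 CPM (median 42.8) in Sham-H (0.10 ± 0.06). Aurka had 2.75 to 5.73 CPM (median 3.77) in PAB-H and 2.50 to 4.60 CPM (median 2.611) in Sham-H (0.26 ± 0.18). Mcm6 had 9.14 to 13.7 CPM (median 10.5) in PAB-H and 7.97 to 14.5 CPM (median 12.1) in Sham-H (-0.11 ± 0.15), and Mcm3 5.40 to 8.58 CPM (median 5.97) in PAB-H and 5.34 to 8.37 CPM (median 6.46) in Sham-H (-0.09 ± 0.16). These 4 genes lay within similar ranges in both groups. In LV, Rrm1 had 39.2 to 48.2 CPM (median 44.1) in PAB-H and 38.2 to 42.9 CPM (median 38.8) in Sham-H (0.13 ± 0.07). Mcm7 in LV had 25.9 to 34.4 CPM (median 29.4) in PAB-H and 26.3 to 39.9 CPM (median 30.6) in Sham-H (-0.13 ± 0.08), and E2f1 3.36 to 5.80 CPM (median 5.09) in PAB-H and 4.06 to 7.24 CPM (median 5.77) in Sham-H (-0.21 ± 0.14). In Spt, Pcna had 51.9 to 64.3 CPM (median 59.1) in PAB-H and 55.8 to 90.5 CPM (median 61.6) in Sham-H (-0.14 ± 0.07), Aurkb 3.33 to 8.60 CPM (median 4.99) in PAB-H and 3.08 to 6.12 CPM (median 4.34) in Sham-H (0.27 ± 0.18) and Tyms 7.71 to 10.5 CPM (median 8.58) in PAB-H and 4.50 to 9.17 CPM (median 7.78) in Sham-H (0.18 ± 0.12).

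In LV upon AOB, Mki67 had 5.74 to 12.5 CPM (median 9.07) in AOB-H, a difference of -0.01 ± 0.21 from Sham-H (95% interval -0.43 to 0.42). Top2a had 4.20 to 10.5 CPM (median 5.64), a difference of -0.14 ± 0.22. Cdk1 had 3.23 to 6.08 CPM (median 5.09), a difference of -0.19 ± 0.22. The ranges of these genes overlapped those of Sham-H. Ccnb1 had 2.17 to 3.47 CPM (median 2.89) (-0.07 ± 0.18), Mcm5 6.67 to 9.11 CPM (median 8.59) (-0.22 ± 0.14) and Pcna 51.6 to 72.2 CPM (median 55.2) (-0.00 ± 0.08), also with overlap. Mcm7 had the lowest p, with 26.6 to 33.1 CPM (median 28.1) in AOB-H and 26.3 to 39.9 CPM (median 30.6) in Sham-H (-0.18 ± 0.08, adjusted p = 0.956). In Spt upon AOB, Pcna had 55.1 to 63.5 CPM (median 55.5) (-0.17 ± 0.07, adjusted p = 0.282). Without the animals with doubtful labels, the RV median was 0.14 upon PAB and -0.26 upon AOB, and the LV median 0.07 and -0.16. Within single library series the RV medians ranged from -0.22 to 0.36 upon PAB and from -0.63 to 0.06 upon AOB, so that their sign was not the same in each series.

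Upon AOB the other members with the lowest p overlapped between AOB-H and Sham-H too. In LV, Cdc20 had 3.38 to 5.31 CPM (median 4.33) in AOB-H and 3.96 to 7.63 CPM (median 4.67) in Sham-H (-0.28 ± 0.17). Nusap1 in LV had 8.13 to 10.5 CPM (median 9.55) in AOB-H and 6.73 to 10.1 CPM (median 9.32) in Sham-H (0.09 ± 0.09), and Rrm1 37.4 to 51.3 CPM (median 41.9) in AOB-H and 38.2 to 42.9 CPM (median 38.8) in Sham-H (0.06 ± 0.07). In Spt, Birc5 had 0.733 to 2.59 CPM (median 1.70) in AOB-H and 1.62 to 3.37 CPM (median 2.06) in Sham-H (-0.35 ± 0.21). Ccne1 in Spt had 1.16 to 2.59 CPM (median 1.85) in AOB-H and 1.18 to 2.01 CPM (median 1.48) in Sham-H (0.25 ± 0.21), and Tyms 6.17 to 10.1 CPM (median 9.11) in AOB-H and 4.50 to 9.17 CPM (median 7.78) in Sham-H (0.11 ± 0.12). None of these groups was apart from the other. In RV, Top2a had 4.06 to 7.73 CPM (median 4.49) in AOB-H and 2.91 to 11.1 CPM (median 7.20) in Sham-H (-0.40 ± 0.22). Foxm1 in RV had 1.08 to 2.98 CPM (median 2.18) in AOB-H and 1.87 to 3.64 CPM (median 2.50) in Sham-H (-0.33 ± 0.18). Rrm1 had 40.7 to 50.9 CPM (median 44.6) in AOB-H and 38.5 to 46.8 CPM (median 42.8) in Sham-H (0.08 ± 0.06), and Ccnb2, a mitotic cyclin, 0.35 to 2.85 CPM (median 0.633) in AOB-H and 0.328 to 1.31 CPM (median 0.588) in Sham-H (0.21 ± 0.36).

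In right heart failure the RV of PAB-F rats had higher levels of most members than the RV of Sham-RF rats, without any member being called. Of 35 differences in RV, 31 were positive, with a median of 0.25 (median 95% interval -0.34 to 1.08), compared with 0.00 over all genes. In RV 0 members were called by edgeR (0% of 11734 genes), 4 had an unadjusted p below 0.05, all higher (8.37% of all genes), and DESeq2 called 0. In LV and Spt of the same rats the medians were -0.12 and -0.09. There 0 were called (0% of all genes), 1 in LV and 0 in Spt had an unadjusted p below 0.05 (1.04% and 4.14% of all genes), and DESeq2 called 0 in each.

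Mcm5 in RV had 7.31, 9.17 and 7.82 CPM in PAB-F and 3.49 and 5.32 CPM in Sham-RF. The groups did not overlap, and the difference was 0.87 ± 0.35 (95% interval 0.17 to 1.58, adjusted p = 0.53 by edgeR's quasi-likelihood test). Ccne1 had 1.18, 2.611 and 2.21 CPM in PAB-F and 0.727 and 0.957 CPM in Sham-RF, again without overlap (1.24 ± 0.50, adjusted p = 0.53). Prc1 had 6.61, 9.59 and 7.65 CPM and 5.16 and 4.07 CPM (0.78 ± 0.40). Top2a had 6.68, 6.68 and 6.09 CPM and 4.14 and 4.72 CPM (0.54 ± 0.38). Mki67 had 8.49, 8.56 and 8.25 CPM and 6.03 and 7.77 CPM (0.28 ± 0.41). In each of these genes all 3 PAB-F values exceeded both sham values. Ccnb1 had 3.13, 4.61 and 3.07 CPM in PAB-F and 1.82 and 2.87 CPM in Sham-RF (0.61 ± 0.34), also without overlap. With so few libraries a lack of overlap can arise without any difference, and its share over all genes is not given here. Cdk1 had 3.20, 5.10 and 3.77 CPM and 1.89 and 3.59 CPM (0.55 ± 0.47), and Pcna 56.7, 58.2 and 52.8 CPM and 53.7 and 54.0 CPM (0.05 ± 0.15), both with overlap. Kif11 (0.86 ± 0.35) and Kif23 (0.81 ± 0.36) were the other members with an unadjusted p below 0.05.

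**Figure D5:**
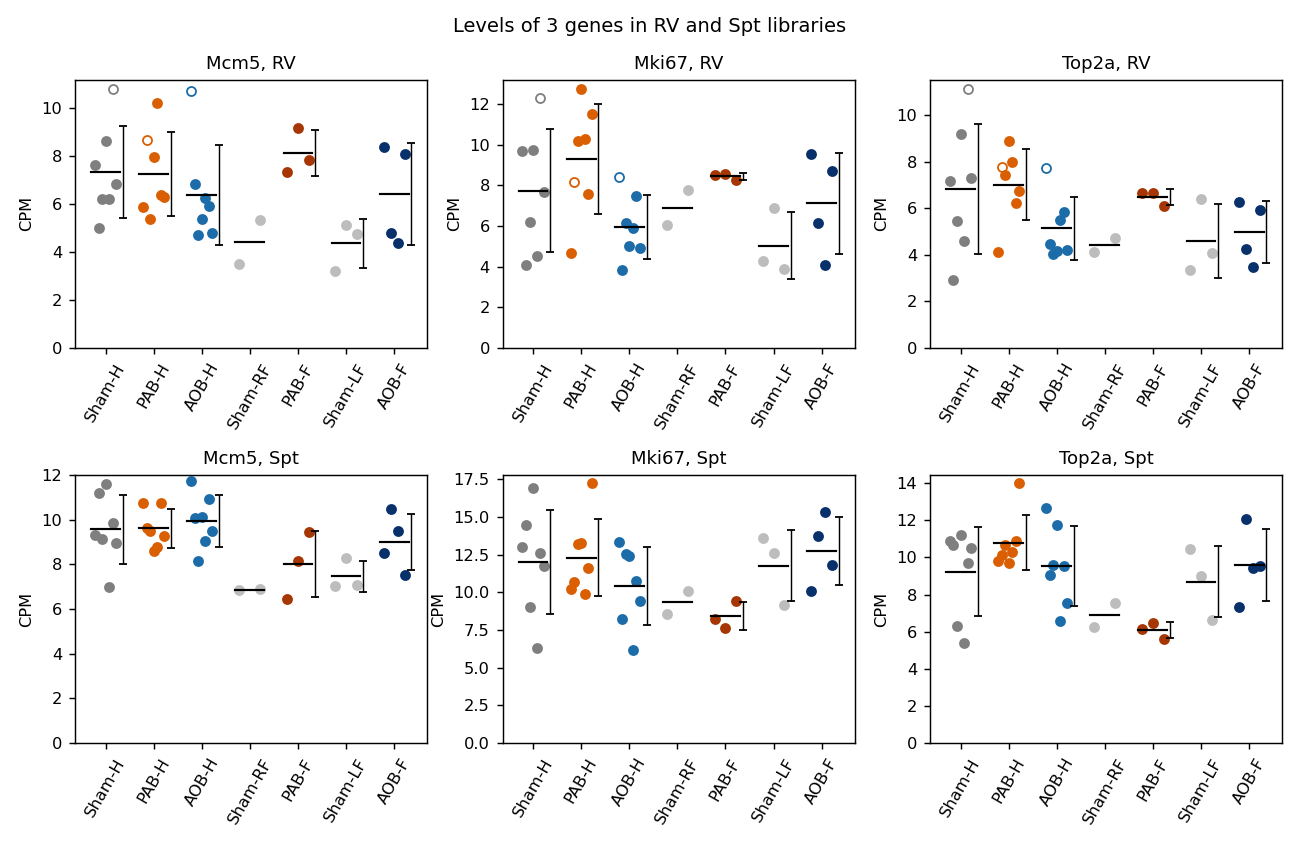
CPM of Mcm5, Mki67 and Top2a in RV (upper panels) and Spt (lower panels) libraries by condition. Each circle is a library, open circles are the animals with doubtful labels, the line is the mean and the bar the SD where a group has more than 2 libraries. In RV the 3 PAB-F values of Mcm5 (7.31 to 9.17 CPM) lie above both Sham-RF values.

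In LV upon PAB at this stage, Aurkb had 3.36, 1.44 and 2.29 CPM in PAB-F and 4.18 and 4.71 CPM in Sham-RF (-0.92 ± 0.37, adjusted p = 1). Birc5, a partner of Aurkb in the chromosomal passenger complex, had 1.14, 1.07 and 0.825 CPM and 1.96 and 1.32 CPM (-0.70 ± 0.40). In both genes all 3 PAB-F values were below both sham values. Mki67 in LV had 10.6, 5.72 and 6.41 CPM in PAB-F and 8.40 and 9.76 CPM in Sham-RF (-0.27 ± 0.36), with overlap. In Spt, Cdk1 had 3.50, 3.32 and 2.92 CPM in PAB-F and 4.92 and 4.75 CPM in Sham-RF (-0.57 ± 0.32). Cenpf in Spt had 3.20, 3.82 and 4.23 CPM and 4.38 and 6.62 CPM (-0.54 ± 0.29). In both Spt genes the PAB-F values lay below the sham values. The share of all genes without overlap in these chambers is not given here.

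Positive differences with the lowest p in these chambers were small. In LV, Bub1, a spindle checkpoint kinase, had 7.22, 5.61 and 5.65 CPM in PAB-F and 4.68 and 6.03 CPM in Sham-RF (0.20 ± 0.21), and Kif11 4.36, 2.67 and 2.86 CPM in PAB-F and 2.82 and 2.87 CPM in Sham-RF (0.21 ± 0.34). In Spt, Mcm5 had 6.47, 8.14 and 9.46 CPM in PAB-F and 6.87 and 6.88 CPM in Sham-RF (0.23 ± 0.18), and Ccne2 3.81, 4.37 and 4.23 CPM in PAB-F and 3.14 and 3.68 CPM in Sham-RF (0.29 ± 0.24). The groups overlapped but for Ccne2, whose 3 PAB-F values exceeded both sham values, without a share over all genes to set beside it. In RV, Plk1 had 1.11, 2.19 and 1.24 CPM in PAB-F and 1.74 and 1.61 CPM in Sham-RF (-0.15 ± 0.46), and Bub1b 1.04, 2.73 and 1.46 CPM in PAB-F and 2.11 and 1.61 CPM in Sham-RF (-0.09 ± 0.43). Both overlapped.

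Whether banding acted differently on RV than on the other chambers was tested directly, in an interaction of banding with chamber that was added after the planned comparisons had been seen. For PAB-F, RV minus LV, 33 of 35 values were positive with a median of 0.45 (median 95% interval -0.21 to 1.42). No member was called by edgeR (0% of all genes), 8 had an unadjusted p below 0.05, all positive (7.41% of all genes), and DESeq2 called 0. Mcm5 (1.00 ± 0.38), Prc1 (1.18 ± 0.46), Ccnb1 (0.97 ± 0.42), Aurkb (1.15 ± 0.51) and Top2a (0.93 ± 0.46) were among them. For RV minus Spt, 33 of 35 were positive with a median of 0.46. Again 0 were called (0% of all genes), 4 had an unadjusted p below 0.05, all positive (4.11% of all genes), and DESeq2 called 0. Leaving out 1 PAB-F or Sham-RF animal at a time, the median of RV minus LV ranged from 0.16 to 0.80. For AOB-F, PAB-H and AOB-H the medians of RV minus LV were -0.05, 0.06 and -0.09, with 0 members called (0% of all genes), 0, 0 and 1 at an unadjusted p below 0.05 (4.32%, 0.998% and 1.23% of all genes), and 0 called by DESeq2.

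The wider cell cycle list also had higher values in RV upon PAB at failure, with 85 of 109 differences positive (median 0.28), 42 of 51 among its mitotic genes (median 0.43). Of the 109 genes, 6 had an unadjusted p below 0.05, a smaller share than the 8.37% of all genes, and 0 were called. The cardiomyocyte marker sum in RV was 50814 to 63106 CPM in PAB-F and 67136 to 68891 CPM in Sham-RF, and the macrophage marker sum 193 to 381 CPM and 251 to 257 CPM. No marker was called, and the part of cell composition was not tested.

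In left heart failure the cell cycle genes of the loaded LV had slightly higher levels in AOB-F than in Sham-LF, again with no member called. The median in LV was 0.16 (median 95% interval -0.31 to 0.72) with 29 of 35 positive, in Spt 0.10 with 24 positive and in RV 0.09 with 23 positive. In LV 0 members were called by edgeR, where 0.837% of all genes were called, 0.666% higher and 0.171% lower, 0 had an unadjusted p below 0.05 (12.7% of all genes), and DESeq2 called 0. In Spt 0 were called (0.232% of all genes, 0.155% higher and 0.0774% lower), 2 had an unadjusted p below 0.05 (12.2% of all genes), Ccne1 (0.85 ± 0.32) and Mcm3 (0.45 ± 0.19), and DESeq2 called 0. In RV 0 were called (0% of all genes), 0 had an unadjusted p below 0.05 (12.9% of all genes), and DESeq2 called 0.

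Mcm3, a helicase subunit, had 9.23, 7.81, 6.43 and 8.63 CPM in AOB-F and 5.91, 6.12 and 5.70 CPM in Sham-LF in LV. The groups did not overlap, and the difference was 0.45 ± 0.22 (95% interval -0.00 to 0.90, adjusted p = 0.396 by edgeR's quasi-likelihood test). E2f1 in LV had 6.13, 7.20, 5.01 and 6.59 CPM in AOB-F and 4.57, 5.70 and 3.93 CPM in Sham-LF (0.41 ± 0.20). Mki67 in LV had 9.08, 13.7, 10.9 and 9.78 CPM in AOB-F and 8.80, 8.90 and 9.22 CPM in Sham-LF (0.29 ± 0.30). Top2a in LV had 6.96, 10.4, 6.92 and 7.20 CPM in AOB-F and 6.69, 8.48 and 6.05 CPM in Sham-LF (0.17 ± 0.32). In Mki67 and Top2a replicate 2 of AOB-F was highest. Cdk1 in LV had 4.69, 6.59, 4.20 and 3.94 CPM in AOB-F and 4.07, 6.61 and 4.52 CPM in Sham-LF (-0.05 ± 0.32). Ccnb1 in LV had 3.63, 3.60, 3.21 and 2.79 CPM in AOB-F and 1.504, 4.17 and 3.11 CPM in Sham-LF (0.19 ± 0.26). Mcm5 in LV had 9.46, 10.2, 7.48 and 8.97 CPM in AOB-F and 6.18, 8.00 and 7.99 CPM in Sham-LF (0.30 ± 0.20). Pcna in LV had 59.9, 59.0, 58.1 and 58.8 CPM in AOB-F and 55.5, 63.3 and 51.5 CPM in Sham-LF (0.06 ± 0.11). Apart from Mcm3, the groups overlapped in all of these genes. The share of all genes without overlap is not given here. In Spt, Ccne1 had 2.74, 1.277, 2.94 and 1.49 CPM in AOB-F and 1.283, 1.32 and 0.861 CPM in Sham-LF (adjusted p = 0.241). In RV, Mcm5 had 8.38, 4.78, 4.37 and 8.06 CPM in AOB-F and 3.21, 5.09 and 4.76 CPM in Sham-LF (0.57 ± 0.29, adjusted p = 0.392), 2 of the 4 AOB-F rats being above all shams.

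Members with negative differences in LV were spread over both groups. Aurkb in LV had 3.94, 4.82, 3.03 and 3.74 CPM in AOB-F and 4.29, 5.01 and 4.35 CPM in Sham-LF (-0.22 ± 0.31). Ccnb2 in LV had 0.984, 1.77, 0.742 and 0.815 CPM in AOB-F and 0.613, 1.74 and 1.17 CPM in Sham-LF (-0.09 ± 0.40). In Spt, Mcm3 had 9.08, 7.87, 9.77 and 7.23 CPM in AOB-F and 7.64, 6.69 and 4.18 CPM in Sham-LF (0.45 ± 0.19). Birc5 in Spt had 0.915, 1.38, 1.61 and 1.75 CPM in AOB-F and 1.93, 1.85 and 1.60 CPM in Sham-LF (-0.35 ± 0.32), and Mcm4, a helicase subunit, 11.8, 13.4, 12.8 and 11.1 CPM in AOB-F and 13.2, 14.2 and 11.9 CPM in Sham-LF (-0.10 ± 0.12). The groups overlapped in these Spt genes. In RV, Mcm3 had 7.92, 6.65, 6.40 and 7.82 CPM in AOB-F and 4.96, 6.57 and 4.36 CPM in Sham-LF (0.47 ± 0.24). Pcna in RV had 51.2, 51.8, 53.0 and 52.3 CPM in AOB-F and 65.2, 61.6 and 48.0 CPM in Sham-LF (-0.14 ± 0.13), and Cdk1 2.95, 2.32, 2.04 and 3.99 CPM in AOB-F and 4.12, 4.11 and 2.12 CPM in Sham-LF (-0.26 ± 0.40). The groups overlapped in RV as well.

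Beside these values, the cardiomyocyte marker sum in LV was 35456 to 49937 CPM in AOB-F and 52543 to 66452 CPM in Sham-LF, and the macrophage marker sum 346 to 573 CPM and 295 to 366 CPM. No marker was called. The part of cell composition was not tested. Of the wider list, 93 of 111 genes had positive values in LV (median 0.18), and 0 were called. An unadjusted p below 0.05 was found for 11 with higher and 1 with lower levels, a smaller share than the 12.7% of all genes.

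The response to banding was compared between the stages, as failure minus compensated. Most values were positive in the loaded ventricles, and none was called by edgeR. For AOB in LV the median was 0.26 (median 95% interval -0.34 to 1.01) with 30 of 35 positive, 0 called (0% of all genes), 3 with an unadjusted p below 0.05 (7.6% of all genes), namely E2f1 (0.62 ± 0.24), Mcm3 (0.68 ± 0.27) and Mcm5 (0.52 ± 0.24), and 0 called by DESeq2. For AOB in Spt the median was 0.19 with 34 of 35 positive, 0 called (0% of all genes), 2 with an unadjusted p below 0.05 (2.92% of all genes), Mcm3 (0.53 ± 0.23) and Ccne2 (0.52 ± 0.24), and 0 called by DESeq2. For PAB in RV the median was 0.21 with 31 of 35 positive, 0 called (0% of all genes), 1 with an unadjusted p below 0.05 (2.67% of all genes), Mcm5 (0.89 ± 0.39), and 0 called by DESeq2. That median was 0.01, with 19 of 35 positive, in the RV libraries of series 2 alone. For PAB in Spt the median was -0.04 with 0 called (0% of all genes), 1 with an unadjusted p below 0.05 (1.17% of all genes), Aurkb (-0.84 ± 0.37), and 0 called by DESeq2.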

How the data were processed

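RNA of LV, Spt and RV of 33 rats was sequenced after polyA selection. The authors deposited whole-number read counts per gene for each library. They also deposited normalized counts, a signal that equals the raw counts times a constant per library, and FPKM, which are corrected for gene length. Per the labels and the study's methods, the authors used Trim Galore, STAR with the rat build Rnor6.0 and UCSC annotation, featureCounts without multiple overlaps, and DESeq2. Whether counting used the strand was not given in the sources used here.

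Groups were taken from the labels. The cell cycle genes, role groups, marker lists and wider list were chosen with earlier results of these data known. Tests of age, banding and stage were made on the deposited counts with edgeR 4.0.16 in R 4.3.3 (quasi-likelihood test, TMM scaling, filterByExpr), in a fit of the 33 libraries of a chamber. Comparisons between chambers, and of age or banding between chambers, used all 99 libraries with a term for each animal (the animal as a block). Those between chambers, and those of banding between chambers, were added after the planned comparisons had been seen. Benjamini-Hochberg adjustment ran over all genes tested, and a gene was called at an adjusted p below 0.05. DESeq2 1.42.0 was the other test. Intervals are 95%. Log2 CPM for means, correlations and plots used a prior count of 2. The procedure was run on simulated counts with changes larger than most reported here and without effects of animal or library series. That run does not give power or error rates at the sizes reported here.

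The rule for values by library named Mki67, Top2a, Cdk1, Ccnb1, Mcm5 and Pcna, and in each chamber and comparison the 2 members with the lowest p in each direction. The former are given for age and for the loaded ventricle, and in part for the other chambers. Of other cell cycle genes, D cyclins and CDK inhibitors and, for age, the 3 genes with the lowest p per chamber were named. Other genes named by library were chosen after their values were seen. No count above 0 was found for 2218 genes, which stayed out of the tests. No pair of libraries in a group agreed within sampling noise, the lowest chi-square per degree of freedom being 3.67.

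The tissue field of RV samples reads left ventricle, and titles were used. The RV description of Sham-LF replicate 1 names the other older sham group, and its title was used. For Spt of AOB-F, a sheet of the study has replicates 1 and 2 exchanged, and the deposited column names were followed. Ages and times since surgery are those of the labels, and the study text gives other ages and, for the failure groups, other times. Library series were read from the library numbers in the labels. Promoters came from RefSeq, build GRCr8, which is not the build of the counts. Other settings are described with the closing observations.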

Additional observations from a re-analysis of the deposited data

Results flagged for a closer look

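In groups of 4 to 10 libraries, the mean log2 CPM of the 35 genes and the log2 CPM of Mki67, Top2a, Cdk1, Ccnb1, Mcm5 and Pcna were searched for a library far from the others of its group, by Dixon's test. Among 84 combinations of group and measure, 9 stood apart, where chance gives about 1 in 20. Of these 9, 6 belong to the 2 banded animals with doubtful ventricle labels.

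The LV library of PAB-H replicate 2 had a mean of 1.69 over the cell cycle genes, where the other PAB-H LV libraries had 2.45 to 2.72. In the same library Cdk1 was at 1.33 (others 2.19 to 2.595), Ccnb1 at 0.82 (others 1.66 to 1.90) and Mcm5 at 2.48 (others 3.06 to 3.43). The RV library of AOB-H replicate 1 had a mean of 2.80, where the other AOB-H RV libraries had 1.77 to 2.07. Its Ccnb1 was at 2.14 (others 0.99 to 1.37).

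The remaining 3 concerned single genes. Top2a was at 3.40 in LV of AOB-F replicate 2 (others 2.82 to 2.87) and at 3.82 in Spt of PAB-H replicate 7 (others 3.29 to 3.46). Pcna was at 6.502 in Spt of Sham-H replicate 5 (others 5.81 to 6.10).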

How the results depend on the processing

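The count of members called was recomputed 634 times under other settings and stayed within 1.5 times in 596 of them. In most comparisons the main count was 0, where few or no genes at all were called, so that staying at 0 says little about stability. The shares of all genes under these settings are not given here. Older against young shams in Spt gave 1 call with DESeq2 and 1 in a single library series, and leaving out single animals gave 0 to 3 calls, with 3 without Sham-H replicate 5 and 1 without Sham-LF replicate 3. In RV it gave 1 call with all 99 libraries in a joint fit. RV minus LV over all conditions gave 28 calls without the doubtful animals, 0 in the animals with a shared library series, 10 in these without doubtful labels, and 0 in series 1 and 0 in series 3, of which the former gave 8 and the latter 15 without the doubtful animals. RV minus Spt gave 4 and 14 in the animals with a shared series, with and without doubtful labels. Spt minus LV gave 5 with DESeq2, and 0 and 0 in the animals with a shared series. In young shams RV minus LV gave 5 without the doubtful animals and 0 to 1 when leaving out single animals. There RV minus Spt gave 0 with library totals, 0 without the animal block, 12 without the doubtful animals and 0 to 3 when leaving out single animals. In older shams RV minus LV gave 4 without the animal block, 11 without the doubtful animals and 0 to 6 when leaving out single animals. There RV minus Spt gave 2, 11 and 0 to 7 under the same settings. Single animals were not left out of the comparisons over all conditions. In the fits of a shared series and of left-out animals fewer samples were used, and otherwise the cause was not tested.

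Of 2185 differences of single members, 1908 kept direction and call, 200 lost and 65 gained a call, and 12 changed sign. Within series 1, whose 6 animals include 2 with doubtful labels, RV minus LV was 0.19 for Aurka, 0.0222 for Aurkb, 0.12 for Ccnb1, 0.0137 for Cdk1, 0.0640 for Cenpf, 0.13 for Kif20a, 0.14 for Kif23, 0.0604 for Mcm6 and 0.15 for Rrm2. Without these 2 animals, none of the 9 was positive. Rrm2 in LV upon PAB was -0.10 in that series, one doubtful animal (PAB-H replicate 2) included. Spt minus LV of Ccne2 was -0.0831 in the animals with a shared series and -0.0855 without doubtful labels.

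The labels do not say that a shared replicate number pairs animals across conditions. Deviations of same-numbered libraries from their group means correlated above 0.1 in 6 of 7 pairs of banded and Sham-H animals in LV and in RV. This held for PAB-H and for AOB-H. In Spt it was 3 of 7 pairs for PAB-H and 1 of 7 for AOB-H. At the compensated stage, same-numbered libraries within a chamber also share a library series. Spt splits the numbers between series in another way than LV and RV do. A pairing of animals and a shared series can therefore not be told apart in LV and RV. The part of the series in these correlations was not tested. The main fits of a chamber did not use the number as a block. With the replicate number as a replicate block, 0 members were called in every planned comparison, and the medians were -0.33 for age in Spt, -0.31 for age in RV and 0.37 for PAB-F in RV.

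With 2 to 4 animals per older group, intervals were wide, and low levels such as those of Rrm2 add counting error. The interval of a gene belongs to its difference between groups. It rests on a spread estimated over all groups of a fit and partly shared across genes, and does not describe the spread of these few animals. Bulk tissue does not tell which cells carry the transcripts. Age, time since surgery and library series overlap in the older groups, and no value separates them in full.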
